A study of Mus musculus with 14 samples.

Results

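The genes described here are 39 interferon-stimulated genes, followed in the cerebellum, cerebral cortex and hippocampus of mice that lack CARIP and of wild-type mice. They were chosen by name, as the rows of the count table whose Ensembl identifier maps to 39 listed mouse symbols, and all 39 were found among its 48440 rows. All 39 were also among the 24680 genes that passed the filter on low counts and were tested. The rule itself used names and no measured value, but the names were listed with earlier results of these data known.

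Bulk RNA sequencing libraries were made from brain tissue of C57BL/6 mice, a standard laboratory strain. The knockout groups had the genotype CARIP-/- and comprised 3 libraries of cerebellum, 2 of cerebral cortex (titled cerebrum) and 2 of hippocampus; the wild-type groups comprised the same numbers. The labels give no age, no treatment and no number of animals, so p-values measure the spread between these libraries, which may be technical. How the CARIP allele was made is not given in the labels, and because no symbol in the annotation used here names CARIP, the loss of its transcript was not checked.

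Type I interferons bind the IFNAR receptor, whose kinases JAK1 and TYK2 phosphorylate transcription factors such as STAT2. STAT2 and IRF9 are parts of the complex ISGF3, which binds the interferon-stimulated response element (ISRE) of its target genes, whereas interferon gamma acts mainly through the gamma-activated site (GAS). The targets encode sensors of foreign nucleic acid, proteins that block viral entry, translation or release, and components of antigen presentation, and most are held at a low level in the healthy brain, where microglia, endothelium and the choroid plexus are among the cells that respond to interferon.

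The promoter windows below show the response elements that several of these genes share. RefSeq promoter windows (GRCm38.p6, 250 bases before to 50 bases after each annotated start) were matched by symbol for 32 of the 39 genes; Dhx58, Zbp1, Usp18, Parp9, Parp14, Rtp4 and Ifi27 had none. The ISRE was searched as GAAA, any 2 bases and GAAA again, and the GAS as TTC, any 3 bases and GAA, each on both strands. The ISRE letters were in the windows of 18 of the 32 genes (56.2%), against 3.99% of 27025 genes with a RefSeq window. GAS letters were in the windows of 10 of the 32 (31.2%), against 9.55% of all. A match describes letters in a window and not an occupied site. The stretches below are printed 5′ to 3′ on the strand of the gene, with the matched letters in capitals (a match on the other strand reads as its reverse complement). They lie at chr19:34640765-34640833 (Ifit1, + strand), chr19:34583353-34583436 (Ifit3, +), chr19:34607749-34607832 (Ifit3b, +), chr4:156200855-156200916 (Isg15, −), chr8:71537567-71537622 (Bst2, −), chr7:104465200-104465249 (Trim30a, −), chr10:128270256-128270305 (Stat2, +), chr2:122147528-122147577 (B2m, +), chr11:58199502-58199551 (Igtp, +) and chr11:53769904-53769952 (Irf1, +, GAS).
Ifit1: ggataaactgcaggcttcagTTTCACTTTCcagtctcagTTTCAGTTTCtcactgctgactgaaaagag
Ifit3: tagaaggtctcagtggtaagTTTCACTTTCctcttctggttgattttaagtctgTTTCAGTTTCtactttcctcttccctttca
Ifit3b: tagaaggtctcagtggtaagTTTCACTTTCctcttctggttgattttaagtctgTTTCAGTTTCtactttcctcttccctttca
Isg15: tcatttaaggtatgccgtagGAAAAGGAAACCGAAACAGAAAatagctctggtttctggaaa
Bst2: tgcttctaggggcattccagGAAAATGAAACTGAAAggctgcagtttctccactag
Trim30a: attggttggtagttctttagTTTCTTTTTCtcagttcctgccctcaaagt
Stat2: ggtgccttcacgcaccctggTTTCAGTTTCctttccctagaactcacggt
B2m: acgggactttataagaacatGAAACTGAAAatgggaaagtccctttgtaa
Igtp: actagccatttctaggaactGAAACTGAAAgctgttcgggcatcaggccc
Irf1: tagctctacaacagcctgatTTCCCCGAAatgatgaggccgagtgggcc

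All of these stretches lie upstream of the annotated start. Ifit1 and Ifit3 each carry a pair of separate matches, and the stretches of the neighbouring genes Ifit3 and Ifit3b are letter for letter the same. In Isg15 and Bst2 several matches run into each other, and the ISRE letters of Bst2 share bases with a GAS match. The transcripts of Ifit3 and Ifit3b are similar too: 51.2% of the 50-base stretches of Ifit3 occur elsewhere in the transcriptome, as do 57.6% of those of Oas1a (shared with Oas1g), so the split of reads between such copies is uncertain. Parp9 and Dtx3l overlap in 458 exon bases on opposite strands, and reads there cannot be told apart if strand was not used. The interval called Ifi27 in GENCODE M21 (chr12:103434211-103440239, + strand) lies within the gene that RefSeq calls Ifi27l2a. Gene positions are those of GENCODE M21 on GRCm38.

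Depth ran from 20.1 to 38.8 M counted reads per library (median 24.7), and the deepest library was knockout cortex 2. Levels are given as CPM, which sets each gene's count against the total of its library, with library totals scaled by TMM. Per kilobase of exon, B2m, the light chain of MHC class I, had the highest level of the 39 genes at 39.5 ± 10.7 CPM per kb (SD, n = 14 libraries), followed by Stat2 at 10.0 ± 5.98 and Ifi27 at 7.58 ± 2.21. The lowest were Oas1a at 0.189 ± 0.0983, Zbp1 at 0.0781 ± 0.0712 and Ifi44 at 0.0726 ± 0.0247 CPM per kb. Oas1a rested on 2 to 20 reads per library, Zbp1 on 0 to 23 and Ifi44 on 5 to 18, and differences in these 3 genes are therefore imprecise.

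Markers of other cells set some libraries apart. The 11 choroid plexus markers (Ttr, Kl, Enpp2 and others) summed to 133 CPM in wild-type cerebellum 1, with Sostdc1 at 0 reads, but to between 1255 and 2085 CPM in the other 5 cerebellar libraries. They summed to 1808 CPM in wild-type hippocampus 2 and to at most 344 CPM in the other 3 hippocampal libraries. Knockout cerebral cortex 2 had 1129.9 CPM of these markers and 708 CPM of 7 striatal neuron markers, whereas the other 3 cortical libraries had 241 to 287 CPM and 96.5 to 116 CPM. The other knockout cortical library, knockout cortex 1, had 45.5 CPM of 7 neutrophil markers, against 4.99 to 11.6 CPM in the other 3. Wild-type cerebellum 2 had 9191 CPM of 10 oligodendrocyte markers, against 2335 to 4433 CPM in the other 5 cerebellar libraries. The 7 cerebellar neuron markers summed to 2408 CPM or more in cerebellum and to at most 189 CPM elsewhere. Their granule cell gene Gabra6 had 168, 106 and 202 reads in knockout hippocampus 1 and 2 and wild-type hippocampus 2 but 0 in wild-type hippocampus 3. The 7 hippocampal neuron markers summed to 845 to 1144 CPM in hippocampus and 194 to 429 CPM in cortex, whereas the 7 cortical neuron markers overlapped between them (1267 to 1833 CPM in cortex, 1256 to 1489 CPM in hippocampus). In bulk tissue, fewer cells of a type and less RNA per cell cannot be told apart.

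In the cerebellum most of the 39 genes were higher in the knockout, by modest amounts. The log2 fold change was above 0 for 34 of 39 genes, against 47.6% of all 24680 genes, and its median was 0.33, against −0.01 over all genes. None passed the test: edgeR's quasi-likelihood test with Benjamini-Hochberg adjustment called 0 of the 39 and 0 of all genes (0%). At an unadjusted p under 0.05 there were 7 of the 39 genes, all higher in the knockout, against 3.18% of all genes. DESeq2 called 2 genes (0.0081%) and limma voom 0, none of them among the 39, and each had 7 of the 39 at an unadjusted p under 0.05. In 8 genes (Ddx58, Ifi27, Ifih1, Ifit1, Irgm1, Oasl2, Parp9 and Trim30a) every knockout library lay above every wild-type library, against 4.78% of all genes, and in none of the 39 was the order the other way (4.52% of all genes).

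**Figure D1:**
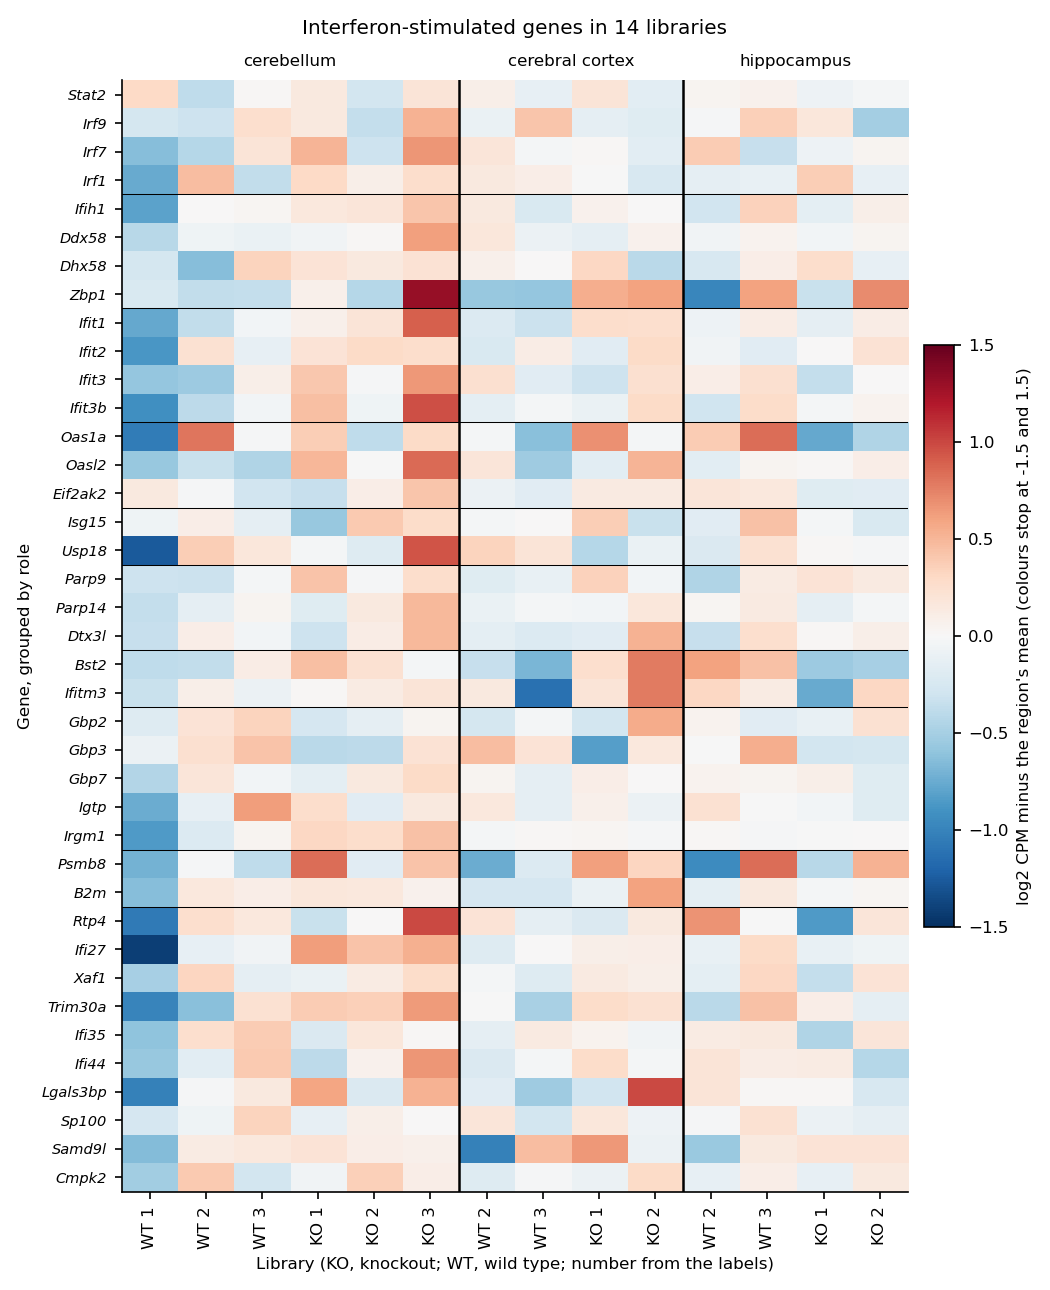
Heat map of the 39 genes (rows, grouped by role with thin lines) in 14 libraries (columns, by region and genotype); the colour is log2 CPM minus the mean of that region's libraries. Wild-type cerebellum 1 was the lowest cerebellar library for 30 of 39 genes, and knockout cerebellum 3 was the highest for 19.

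The 5 genes with the smallest p in the cerebellum were Ifi27, Oasl2, Irgm1 and, from the IFIT family, Ifit1 and Ifit3b. Ifi27, a small membrane protein strongly induced by type I interferon, was at 14.2, 12.4 and 13.3 CPM in knockout cerebellum 1 to 3 and at 3.40, 8.43 and 8.83 CPM in wild-type cerebellum 1 to 3. All knockout libraries lay above all wild-type libraries, and wild-type library 1 was far below the other 2. For Ifi27 the log2 fold change was 0.94 ± 0.27 (SE, 3 against 3 libraries; adjusted p = 1 by edgeR's quasi-likelihood test). Without wild-type cerebellum 1 it was 0.62.

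Oasl2 (chr5:114896936-114912234, + strand), an oligoadenylate synthetase-like protein, was at 7.21, 5.07 and 9.25 CPM in the knockout and at 3.40, 4.03 and 3.69 CPM in the wild type. The wild-type values lay close together and all below the knockout values, which spread more widely. Its log2 fold change was 0.95 ± 0.28 (adjusted p = 1 by edgeR), and 0.73 without knockout cerebellum 3. Irgm1 (chr11:48861968-48871683, − strand), an immunity-related GTPase that acts in autophagy and defence against intracellular pathogens, was at 7.96, 7.71 and 8.70 CPM in the knockout and at 3.53, 5.56 and 6.60 CPM in the wild type. The groups did not overlap, and again wild-type library 1 was lowest. Its log2 fold change was 0.63 ± 0.21 (adjusted p = 1 by edgeR) and 0.42 without wild-type cerebellum 1.

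The IFIT proteins bind foreign RNA and limit its translation, and all 4 of their genes were above 0 in the cerebellum, with a median log2 fold change of 0.75. Ifit1 (chr19:34640871-34650009, + strand) was at 3.72, 4.03 and 6.62 CPM in the knockout and at 2.03, 2.7 and 3.42 CPM in the wild type. Knockout library 3 stood well above the other 2, and the groups did not overlap. For Ifit1 the log2 fold change was 0.81 ± 0.27 (adjusted p = 1 by edgeR), and 0.51 without knockout cerebellum 3. Ifit3b was at 6.94, 4.84 and 10.0 CPM in the knockout and at 2.65, 3.86 and 4.95 CPM in the wild type, so that knockout library 2 and wild-type library 3 overlapped. Its log2 fold change was 0.92 ± 0.30 (adjusted p = 1 by edgeR), and 0.62 without knockout cerebellum 3. Its paralog Ifit3 had 0.69 ± 0.26, and Ifit2 had 0.44 ± 0.25.

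The other roles had smaller or mixed values. Among the transcription factors, Irf7, which drives interferon production, had a log2 fold change of 0.60 and Stat2 one of 0.04. The 4 nucleic acid sensors, among them Ifih1 (MDA5) and Ddx58 (RIG-I), lay between 0.33 and 0.95, the last for the sparsely read Zbp1. Parp9, Parp14 and Dtx3l, which act in ADP-ribosylation, lay between 0.22 and 0.45. The 5 guanylate-binding proteins and immunity-related GTPases were mixed, 3 above 0 and 2 below with a median of 0.06. Gbp3 was at −0.39 ± 0.32, Gbp2 at −0.25 ± 0.28 and Gbp7 at 0.19 ± 0.22. The other genes below 0 were Ifi35, Sp100 and Oas1a, none of them lower than −0.075.

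**Figure D2:**
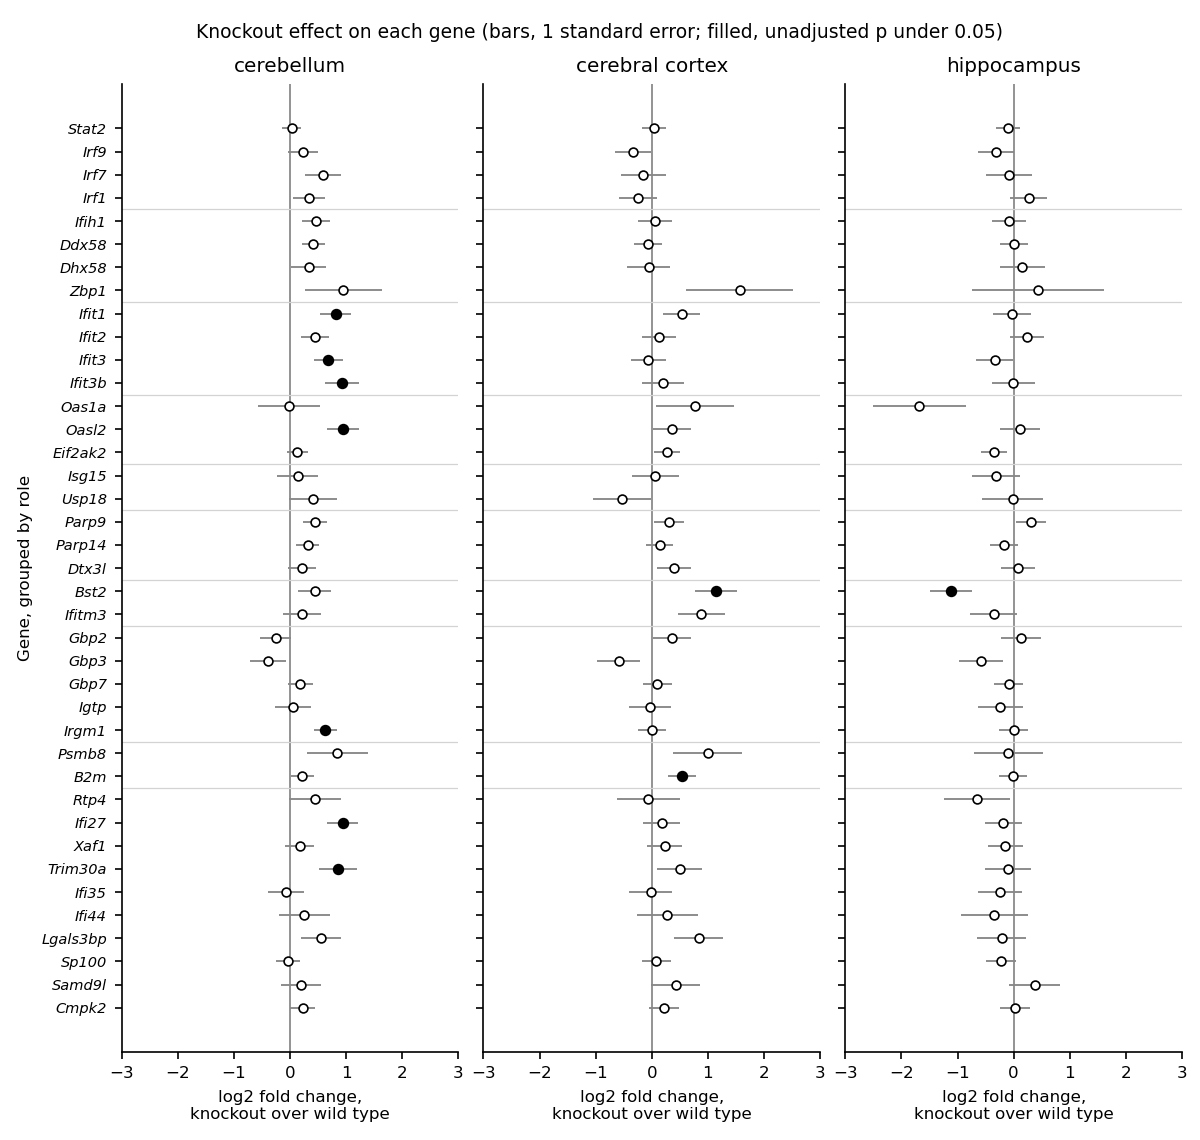
Log2 fold change of knockout over wild type (horizontal axis) for each of the 39 genes (vertical axis) in the 3 regions, with bars of 1 standard error; filled points have an unadjusted p under 0.05 by edgeR. Points lie mostly right of 0 in the cerebellum (34 of 39) and cortex (28 of 39) and mostly left of 0 in the hippocampus (27 of 39).

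The cerebellar libraries of each genotype were unlike each other. Averaged over the 39 genes and relative to the mean of the cerebellar libraries, log2 CPM was 0.11, 0.03 and 0.43 in knockout 1 to 3 and −0.56, −0.04 and 0.04 in wild type 1 to 3. Wild-type cerebellum 1 and knockout cerebellum 3 stood apart on opposite sides, and the other 4 libraries lay between −0.04 and 0.11. Of all genes, 18.4% had their lowest cerebellar value in wild-type cerebellum 1, and 14.2% had their highest in knockout cerebellum 3. Without wild-type cerebellum 1 the median log2 fold change of the 39 genes was 0.19 with 31 above 0, and without knockout cerebellum 3 it was 0.20 with 28 of 38 above 0.

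Wild-type cerebellum 1 was also the library with few choroid plexus transcripts (133 CPM), but knockout cerebellum 3 was not unusual for them (1529 CPM). The 7 neutrophil markers summed to 4.39 to 11.4 CPM in knockout and 2.15 to 4.63 CPM in wild-type cerebellum. Microglial markers overlapped (102 to 149 CPM against 86.9 to 160 CPM), as did endothelial and mural markers (363 to 448 CPM against 353 to 478 CPM). Of the 10 tested markers of border macrophages and other leukocytes 8 were above 0, with a median log2 fold change of 0.61 and sums of 14.2 to 20 CPM in knockout and 13.0 to 15.8 CPM in wild type. All 10 meningeal fibroblast markers were below 0, with a median of −0.72 and sums of 381 to 539 CPM against 536 to 666 CPM. All 10 oligodendrocyte markers were below 0 too (median −0.82), with wild-type cerebellum 2 the highest. Without that library the median of the 39 interferon-stimulated genes was 0.42, with 34 above 0. The part of any of these cells in the result was not tested. In the hippocampus the library with the most choroid plexus transcripts, wild-type hippocampus 2, stood at −0.06 for the 39 genes, and wild-type hippocampus 3 at 0.19.

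**Figure D3:**
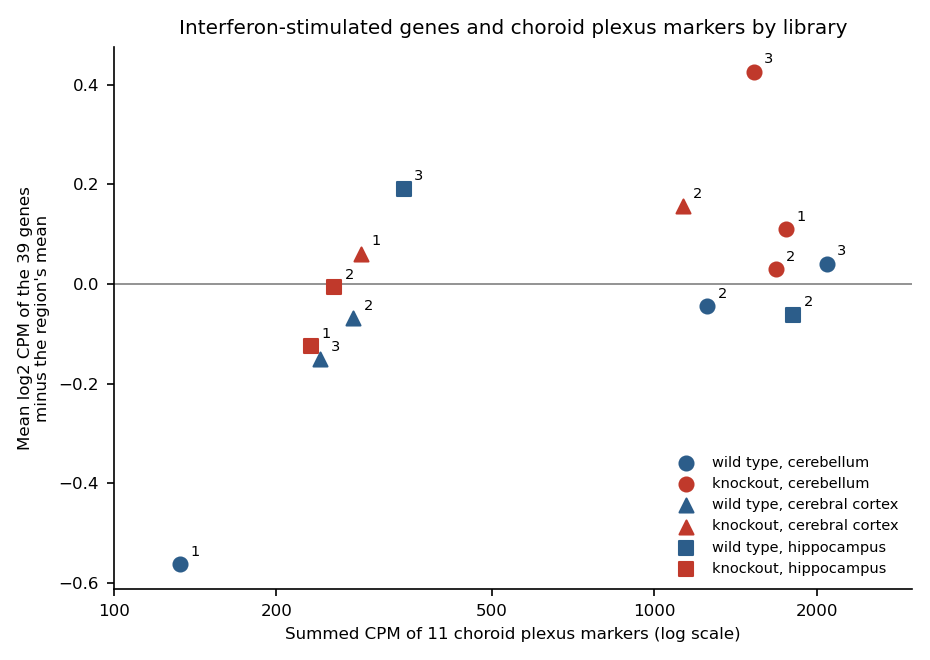
Mean log2 CPM of the 39 genes minus the region's mean (vertical axis) against the summed CPM of 11 choroid plexus markers (horizontal axis, log scale), 1 point per library with its number. Wild-type cerebellum 1 is lowest on both axes at −0.56 and 133 CPM, whereas the other 5 cerebellar libraries span −0.04 to 0.43 at 1255 CPM or more.

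Knockout and wild-type cerebellar libraries numbered 2 deviated together from their group means (correlation 0.751 over 18431 genes). Those numbered 1 and 3 (0.282 and 0.345) did so less than knockout 3 with wild type 1 (0.446). The number was also fitted as a replicate block, which rests on a pairing of numbers 1 and 3 that these values do not show. In cerebellum alone with this block, edgeR called 58 genes (0.269%), and 0 of the 38 interferon-stimulated genes left by the filter (Zbp1 was dropped). In cerebellum alone without it, edgeR called 0 genes (0%). Of the 38, 12 had an unadjusted p under 0.05 with the block (9.82% of all genes), all higher in the knockout, and 7 without it (3.71% of all genes). The smallest adjusted p with the block was 0.116 by edgeR, for Ifit3. Fitted to all libraries with the block in the cerebellum, edgeR called 0 genes, and 8 of the 39 had an unadjusted p under 0.05 (4.01% of all genes).

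In the cerebral cortex the 3 smallest p-values of the list were those of Bst2, B2m and Ifitm3, each with a log2 fold change above 0, and none passed the test. edgeR called 0 of the 39 and 0 of all genes (0%); 2 of the 39 had an unadjusted p under 0.05, against 7.39% of all genes. DESeq2 called 50 genes (0.203%) and limma voom 0, none of them among the 39, with 2 of the 39 at an unadjusted p under 0.05 in each. The log2 fold change was above 0 in 28 of 39 genes (52% of all genes), with a median of 0.18 (0.02 over all). Both knockout libraries lay above both wild-type libraries for 13 genes (14% of all genes) and below them for 4, namely Gbp3, Irf1, Irf9 and Usp18 (13.3% of all genes).

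Bst2 (chr8:71534255-71537456, − strand) encodes tetherin, which holds budding enveloped virus at the cell surface. It was at 1.02 and 1.51 CPM in knockout cortex 1 and 2 and at 0.651 and 0.495 CPM in wild-type cortex 2 and 3. Both knockout values were higher, and the log2 fold change was 1.15 ± 0.38 (SE, 2 against 2 libraries; adjusted p = 0.666 by edgeR's quasi-likelihood test). B2m was at 38.3 and 62.0 CPM in the knockout and at 34.3 and 34.4 CPM in the wild type. The difference came mainly from knockout cortex 2: the log2 fold change was 0.55 ± 0.25 (adjusted p = 0.675 by edgeR), and 0.15 without that library.

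Ifitm3, which blocks fusion of entering virus, was at 5.43 and 8.16 CPM in the knockout and at 5.25 and 2.13 CPM in the wild type. Lgals3bp, a secreted glycoprotein, was at 8.96 and 21.9 CPM against 9.77 and 7.57 CPM, and only knockout cortex 2 was high. Their log2 fold changes were 0.88 ± 0.41 and 0.84 ± 0.44, and that of Lgals3bp was 0.04 without knockout cortex 2. That of Ifitm3 was 0.38 without wild-type cortex 3 and 1.69 without wild-type cortex 2. Zbp1, a sensor of Z-form nucleic acid, was at 0.340 and 0.356 CPM against 0.115 and 0.114 CPM, a log2 fold change of 1.56 ± 0.95 on few reads. Adjusted p-values of these 3 genes were 0.675 to 0.694 by edgeR.

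Knockout cortex 2 is the library with choroid plexus and striatal transcripts (1129.9 and 708 CPM), and its microglial markers were also the highest of the cortex (456 CPM, against 295 to 353 CPM in the others). Without it the median of the 39 genes was 0.08, with 27 above 0. Without the other knockout library, knockout cortex 1, edgeR called 3005 genes (11.7%) and 2 of the 39, a share below that of all genes. These were B2m (log2 fold change 0.85, adjusted p = 0.0434) and Bst2 (1.40, adjusted p = 0.0472), and the median of the 39 was 0.19. That fit compares knockout cortex 2 alone with the wild type and takes its spread from the other groups. Knockout cortex 1 is the library with more neutrophil transcripts (45.5 CPM). The part of the other tissue in these values was not tested.

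In the hippocampus most of the 39 genes had a log2 fold change slightly below 0. edgeR called 0 of the 39 and 0 of all genes (0%), and only Bst2 had an unadjusted p under 0.05, as against 1.91% of all genes. DESeq2 called 2 genes (0.0081%) and limma voom 0, none among the 39, with 1 of the 39 at an unadjusted p under 0.05 in each. The log2 fold change was above 0 in 12 of 39 genes (49.6% of all), with a median of −0.10 (−0.0015 over all). Both knockout libraries lay above both wild-type libraries for 3 genes (18.1% of all genes) and below them for 9 (18.6% of all genes).

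Bst2 was at 0.713 and 0.741 CPM in knockout hippocampus 1 and 2 and at 1.68 and 1.49 CPM in wild-type hippocampus 2 and 3. In hippocampus and cortex Bst2 was at most 1.68 CPM, so its differences in both rest on few reads. The 2 hippocampal values of each genotype lay close together and apart from the other genotype, with the knockout lower, the opposite of the cortex. This gave a log2 fold change of −1.12 ± 0.37 (adjusted p = 1 by edgeR). Oas1a, which makes the oligoadenylate that activates RNase L, was at 0.0892 and 0.131 CPM against 0.293 and 0.433 CPM, with a log2 fold change of −1.68 ± 0.83 on few reads.

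Gbp3, a guanylate-binding protein, was at 1.83 and 1.83 CPM against 2.22 and 3.26 CPM, a log2 fold change of −0.58 ± 0.39. Eif2ak2 encodes PKR, the kinase that stops translation on double-stranded RNA, and was at 7.63 and 7.68 CPM against 9.81 and 9.64 CPM (−0.35 ± 0.23). Parp9 was at 5.40 and 5.15 CPM against 3.40 and 5.11 CPM (0.31 ± 0.27), where wild-type hippocampus 2 was low. Parp9 was at 0.05 without that library and at 0.63 without wild-type hippocampus 3, and Gbp3 at −0.83 and −0.28. In each of these genes the knockout pair lay on one side of the wild-type pair, and edgeR's adjusted p was 1. The median of the 39 genes was 0.03 without wild-type hippocampus 3, so its sign turned, and −0.23 without wild-type hippocampus 2, the library with 1808 CPM of choroid plexus markers.

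Other markers also differed between the hippocampal genotypes. All 7 erythroid markers were below 0, with a median log2 fold change of −1.38 and sums of 96.0 to 143 CPM in knockout against 266 to 304 CPM in wild type. All 10 oligodendrocyte markers were below 0 (median −0.62, 3090 to 4151 CPM against 4645 to 5491 CPM). All 7 cerebellar neuron markers were above 0 (median 0.53, 149 to 189 CPM against 85.8 to 131 CPM). No marker of these 3 lists passed the test, and their part in the values of the 39 genes was not tested.

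**Figure D4:**
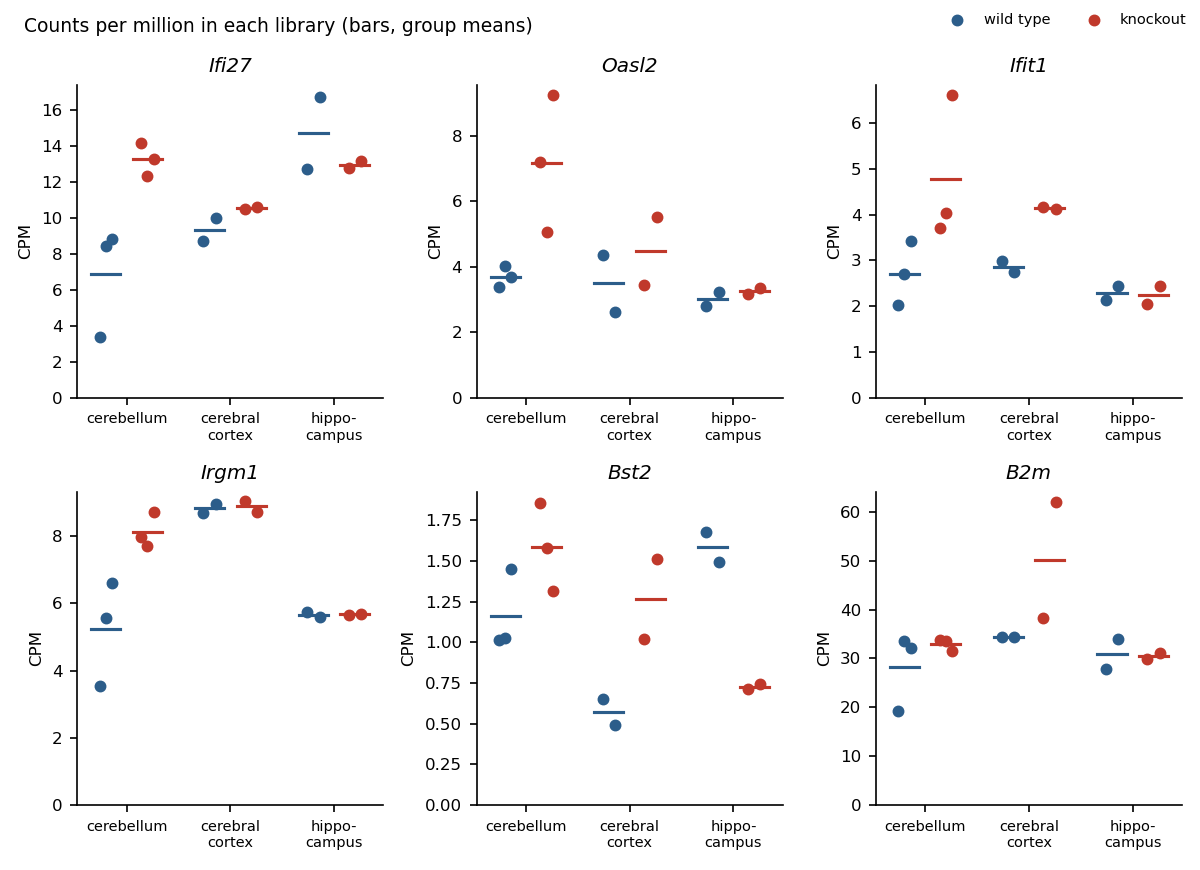
CPM of 6 genes (vertical axes, from 0) in each library by region and genotype; points are libraries and bars are group means. In the cerebellum the knockout points of Ifi27, Oasl2, Ifit1 and Irgm1 lie above all wild-type points, and Bst2 is higher in knockout cortex but lower in knockout hippocampus.

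Whether the knockout effect differed between regions was tested directly. edgeR called 0 genes (0%) in each of the 3 tests of a difference. In hippocampus against cerebellum the difference was below 0 for 37 of 39 genes, whereas 53.5% of all genes were above 0. Its median was −0.48, against 0.02 over all genes, and 3 of the 39 had an unadjusted p under 0.05 (1.49% of all genes). That median was −0.27 without knockout cerebellum 3 and −0.59 without knockout cerebellum 1. In hippocampus against cortex the difference was below 0 for 31 of 39, and 47.6% of all genes were above 0. There, 2 of the 39 had an unadjusted p under 0.05 (3.17% of all). In cortex against cerebellum the difference was below 0 for 23 of 39, and 53.2% of all genes were above 0. In that test 0 of the 39 had an unadjusted p under 0.05 (5.3% of all). DESeq2 and limma voom called 0 genes in all 3; the numbers of the 39 at an unadjusted p under 0.05 were 3, 2 and 0 with DESeq2 and 3, 2 and 1 with limma voom.

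The smallest p among these differences was that of Bst2, a gene singled out after its values were seen. Its effect in hippocampus minus that in cortex was −2.26 ± 0.53 on the log2 scale (adjusted p = 0.926 by edgeR). Against the cerebellum it was −1.56 ± 0.47 (adjusted p = 1 by edgeR). Without knockout cortex 1 the first was −2.52 with an adjusted p of 0.0366 by edgeR, in a fit that called 760 genes (2.95%) and only Bst2 of the 39. Knockout cortex is then knockout cortex 2 alone, the library with choroid plexus and striatal transcripts. The Bst2 window shown above holds both ISRE and GAS letters.

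Averaged over the 3 regions, with limma voom and a random block for genotype and number, 0 of the 39 and 0 of all genes (0%) passed. Of the 39, 30 were above 0 with a median log2 fold change of 0.14, and 4 had an unadjusted p under 0.05 (4.4% of all genes). These were Parp9 at 0.35 ± 0.15, Ifit1 at 0.45 ± 0.20, Oasl2 at 0.48 ± 0.22 and Gbp3 at −0.51 ± 0.22 (SE, 7 against 7 libraries; adjusted p = 1 by limma). Trim30a, an E3 ligase of the TRIM family, followed at 0.49 ± 0.23. Its levels were 2.74, 2.71 and 3.31 CPM in knockout cerebellum against 1.02, 1.33 and 2.47 CPM in the wild type, 3.61 and 3.50 against 2.95 and 2.09 CPM in cortex, and 2.59 and 2.18 against 1.80 and 3.30 CPM in hippocampus. The groups of Trim30a were separate in cerebellum and cortex and overlapped in hippocampus. edgeR without the block called 1 gene (0.00405%) and DESeq2 81 (0.328%), none among the 39, and each had 4 of the 39 at an unadjusted p under 0.05.

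The medians of genes with and without the response element are given as a description, and their difference was not tested. In the cerebellum the median log2 fold change was 0.22 for the 18 genes with ISRE letters (15 above 0) and 0.25 for the 14 without (12 above 0). The 7 genes with no window had a cerebellar median of 0.45, all 7 above 0. In the hippocampus the medians were −0.10 with ISRE letters (3 of 18 above 0), −0.09 without (6 of 14) and −0.02 with no window (3 of 7). For the effect in hippocampus against that in cerebellum they were −0.52, −0.27 and −0.49.

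More of the 39 genes were called between regions than between genotypes. Between cerebellum and cortex edgeR called 14 of the 39 genes (48.4% of all genes), 6 higher in cerebellum (23% of all) and 8 lower (25.3% of all). Between cerebellum and hippocampus it called 12 (47.3% of all), 11 higher in cerebellum (22.6% of all) and 1 lower (24.7% of all), and between hippocampus and cortex 2 (12% of all), both lower in hippocampus (6.48% of all) and 0 higher (5.49% of all). These 3 comparisons share libraries.

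Stat2 (chr10:128270559-128292849, + strand), a partner of IRF9 in ISGF3, set the cerebellum apart most clearly. It was at 106, 78.7 and 109 CPM in knockout cerebellum and at 117, 73.3 and 96.5 CPM in wild-type cerebellum. In cortex it was at 34.8 and 27.2 CPM (knockout) and 32.4 and 28.0 CPM (wild type), and in hippocampus at 30.3 and 31.3 CPM and 32.8 and 33.3 CPM. All 6 cerebellar libraries lay above all 8 others. Genotypes overlapped in cerebellum and cortex, and in hippocampus both knockout values lay slightly below both wild-type values. For Stat2 the log2 fold change was 1.66 ± 0.14 against cortex (adjusted p = 1.4e-06) and 1.60 ± 0.14 against hippocampus (adjusted p = 1.6e-06, edgeR).

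The other member of ISGF3 on the list, Irf9, was also higher in cerebellum, at 11.3 to 21.0 CPM, than in cortex, at 7.33 to 11.1 CPM. Its log2 fold change was 0.82 ± 0.21 against cortex (adjusted p = 0.00605) and 0.77 ± 0.21 against hippocampus (adjusted p = 0.00893, edgeR). Ifit3 was at 11.6, 8.65 and 13.9 CPM in knockout cerebellum and 5.87, 5.97 and 9.34 CPM in wild-type cerebellum. In cortex it was at 4.16 and 6.15 CPM (knockout) and 6.17 and 4.61 CPM (wild type), and in hippocampus at 2.76 and 3.58 CPM and 3.82 and 4.21 CPM. All cerebellar values of Ifit3 lay above all hippocampal values but overlapped those of cortex. Its log2 fold change was 0.76 ± 0.21 against cortex (adjusted p = 0.00881) and 1.33 ± 0.22 against hippocampus (adjusted p = 0.000251, edgeR).

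Irf1 (chr11:53770014-53778374, + strand), a transcription factor induced by interferon gamma, went the other way. In cerebellum it was at 3.10, 2.68 and 3.04 CPM (knockout) and 1.46, 3.48 and 1.92 CPM (wild type). In cortex it was at 6.41 and 5.46 CPM and 7.13 and 6.93 CPM, and in hippocampus at 10.2 and 7.20 CPM and 7.13 and 7.28 CPM. No cerebellar library reached the level of any other. For Irf1 the log2 fold change was −1.31 ± 0.22 against cortex (adjusted p = 0.000287) and −1.60 ± 0.22 against hippocampus (adjusted p = 5.4e-05, edgeR).

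Igtp (Irgm3), an immunity-related GTPase, was highest in cortex, at 4.67 and 4.16 CPM (knockout) and 4.94 and 4.03 CPM (wild type). It was at 1.02 to 2.75 CPM in cerebellum and at 1.66 to 2.22 CPM in hippocampus, below every cortical library. For Igtp the log2 fold change was −1.28 ± 0.24 for cerebellum against cortex (adjusted p = 0.000858) and −1.23 ± 0.28 for hippocampus against cortex (adjusted p = 0.0107, edgeR). Irgm1 was lower in both as well, at −0.44 ± 0.16 (adjusted p = 0.0382) and −0.64 ± 0.18 (adjusted p = 0.0343, edgeR), the latter lost in 6 of 8 fits that left out 1 library. Its exons overlap no other gene, whereas 11.8% of the 50-base stretches of Igtp are shared with Irgm2.

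**Figure D5:**
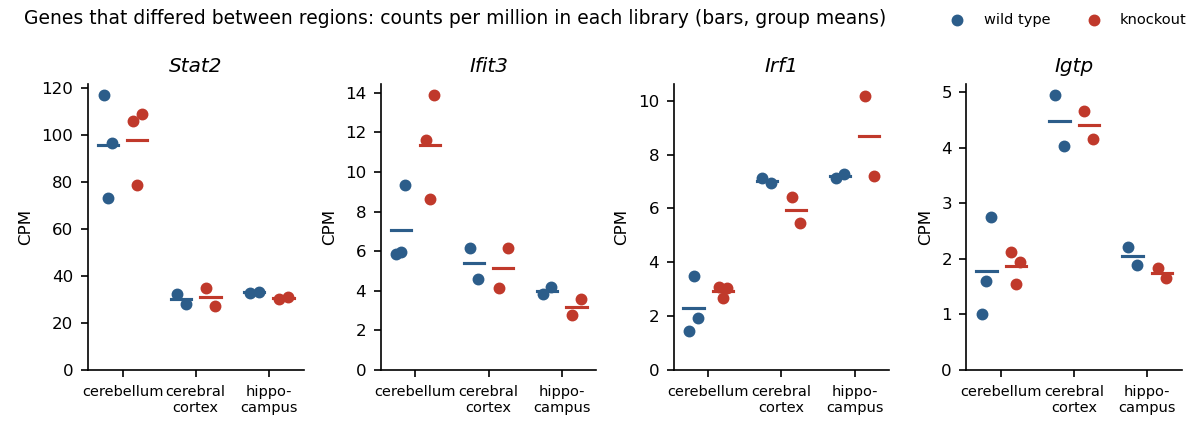
CPM of Stat2, Ifit3, Irf1 and Igtp (vertical axes, from 0) in each library by region and genotype; points are libraries and bars are group means. Stat2 lies at 73.3 CPM or more in cerebellum and at 34.8 CPM or less elsewhere, Irf1 is lowest in cerebellum, and Igtp is highest in cortex.

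Further genes called between regions were spread over the roles. Higher in cerebellum than in cortex were also Bst2 (0.66 ± 0.24), Dhx58 (0.66 ± 0.25) and Eif2ak2 (0.50 ± 0.15). Lower were Isg15, the ubiquitin-like modifier (−0.91 ± 0.27), Ifit2 (−0.80 ± 0.19), Cmpk2, a mitochondrial nucleotide kinase (−0.65 ± 0.17), Gbp7 (−0.62 ± 0.17) and B2m (−0.44 ± 0.16). Isg15 was at 0.442 to 0.936 CPM in cerebellum and at 1.04 to 1.74 CPM in cortex, without overlap, but was not called without knockout cortex 1 (adjusted p = 0.0601 by edgeR). Bst2 passed only by a margin (adjusted p = 0.0362 by edgeR) and was at 0.055 with DESeq2.

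Higher in cerebellum than in hippocampus were also Zbp1 (2.03 ± 0.66), Dhx58 (1.16 ± 0.26), Ifit3b, Irf7, Oasl2, Ifit1, Eif2ak2 and Sp100. Dhx58, the RIG-I-like regulator LGP2, was at 1.54 to 3.10 CPM in cerebellum and at 0.922 to 1.34 CPM in hippocampus. Zbp1 had at most 0.174 CPM in hippocampus and was lost without knockout hippocampus 1 or wild-type hippocampus 2. With wild-type libraries alone edgeR called 4 of the 39 genes between cerebellum and cortex (29.3% of all genes), 2 between cerebellum and hippocampus (29.5%) and 0 between hippocampus and cortex (4.88%). Stat2 and Irf1 passed in both cerebellar comparisons there, and Ifit3 in neither. Against cortex Irf9 (0.54, adjusted p = 0.147 by edgeR), Isg15 (adjusted p = 0.0817) and Bst2 (adjusted p = 0.078) did not pass either. Nor did Dhx58 against hippocampus (adjusted p = 0.0679), or Igtp and Irgm1 in hippocampus against cortex (adjusted p = 0.218 and 0.323 by edgeR).

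Microglial markers were also lower in cerebellum. All 12 fell in cerebellum against cortex (25.3% of all genes), with a median log2 fold change of −1.62, and all 12 fell against hippocampus. Summed, they stood at 86.9 to 160 CPM in cerebellum, 295 to 456 CPM in cortex and 323 to 380 CPM in hippocampus, with no marker at 0. Igtp was low in hippocampus too (1.66 to 2.22 CPM), where the microglial sums overlapped those of cortex. The part of microglia in the lower Irf1, Igtp, Isg15 and B2m was not tested.

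Other genes of the pathway were examined from lists of related genes. Of 14 interferon and cytokine ligands, 2 (Ifnk and Il1b) passed the filter, and Ifnb1, Ifna4, Ifna5, Ifnl2 and Ifnl3 had 0 reads in every library. The ligands summed to 0.453 to 1.57 CPM per library. All 16 receptor and JAK-STAT genes were tested and none passed between genotypes in any region. In the cerebellum 11 of 16 were higher in the knockout. In the cortex 11 of 16 were higher too, with a median log2 fold change of 0.23, but Irf2, which opposes IRF1, was at −0.40 ± 0.17. In the hippocampus 6 of 16 were higher.

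Differences between regions were called in this list as well. The receptor chain Ifngr2 was lower in cerebellum than in hippocampus at −0.97 ± 0.09, and Irf3 was higher in cerebellum than in cortex at 0.78 ± 0.11. In cerebellum against cortex 8 of the 16 genes passed, against 48.4% of all genes, 2 of them higher and 6 lower.

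A list of 78 further interferon-stimulated genes was read beside the 39. Of these 78, 66 were tested and none passed between genotypes. In the cerebellum 47 were above 0 and 19 below, with a median log2 fold change of 0.33 and 14 at an unadjusted p under 0.05 (3.18% of all genes). Oas1b (1.70 ± 0.40), Slfn2 (1.67 ± 0.42), Oas2 (1.08 ± 0.31) and Tap2, a peptide transporter of antigen presentation (0.64 ± 0.22), had the smallest p in the cerebellum, with an adjusted p of 1 by edgeR. In the cortex 51 of 66 were above 0 with a median of 0.29, led by Ifitm2 (1.37 ± 0.40) and Ly6a (0.95 ± 0.29). In the hippocampus 36 of 66 were above 0 with a median of 0.03 and 0 at an unadjusted p under 0.05.

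The 18 tested negative regulators and 18 sensing adaptors and kinases did not pass in any region either. In the cerebellum 9 of the 18 regulators were above 0, and 5 of the 18 adaptors, a median of −0.12. Socs3, a feedback inhibitor of JAK kinases, was at 1.09 ± 0.40 in the hippocampus (adjusted p = 1 by edgeR), and Ptpn6, a phosphatase, at 0.85 ± 0.37 in the cortex. Trim25, the ligase that activates RIG-I, was at 0.41 ± 0.20 in the cerebellum.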

How the data were processed

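The authors deposited 1 table of raw read counts per gene with a column for each of 14 libraries. The submitters' processing notes name Trim Galore 0.6.4 with cutadapt 2.10 as trimmers, STAR 2.7.3a as aligner, featureCounts 2.0.1 as counter and GRCm38.p6 as genome; whether strand was used is not given in the sources used here. PCR duplicates cannot be recognised, so p-values and counts carry that limit. Identifiers were matched to GENCODE M21 symbols (48058 of 48440 rows, 99.2%). 

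Low counts were filtered with filterByExpr (6 groups, region by genotype), and libraries were scaled by TMM. The main test was edgeR 4.0.16 (R 4.3.3), a robust quasi-likelihood fit to all 14 libraries with Benjamini-Hochberg adjustment over 24680 genes and a threshold of 0.05. The averaged knockout effect used limma 3.58.1 voom with genotype and number as a random block (correlation 0.096). Alternatives were DESeq2 1.42.0, limma voom, no filter, regions alone, wild-type libraries alone, a replicate block and leaving out each library. The edgeR, DESeq2 and limma voom fits without a block were tested on simulated counts, for knockout against wild-type cerebellum only. The other fits and comparisons were not.

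Same-numbered cerebellar libraries of the genotypes deviated together from their group means (correlations over 18431 genes of 0.282, 0.751 and 0.345). This was taken as pairing for the fits with a replicate block in the cerebellum. The labels do not say what a number marks. Across differing numbers, 1 with 3 and 3 with 1 reached 0.339 and 0.446, so a pairing of numbers 1 and 3 is not shown. Values per library are given for the 5 genes with the smallest p in each knockout comparison, the 4 largest passing genes per direction between regions, and the 3 highest and lowest levels per length. The genes, the lists of other pathway genes and the cell markers were chosen with earlier results of these data known. Values of 1 gene of the pathway lists are not reported here.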

Additional observations from a re-analysis of the deposited data

Results flagged for a closer look

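Within each region the libraries of both genotypes were read together, and a library was singled out where its gap to the nearest other library was a large share of the whole range (Dixon's 95% bound for groups of 4 or 6). This held for 15 of 117 combinations of gene and region. Chance gives about 1 in 20, and the share over all genes was not computed.

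In the cerebellum, wild-type library 1 was far below the others for B2m (19.2 CPM) and Samd9l, a growth-restricting antiviral protein (3.13 CPM). Knockout library 3 was far above for Ddx58 (12.1 CPM) and Zbp1 (1.04 CPM). In the cortex, knockout library 2 was far above for B2m (62.0 CPM), Dtx3l (13.6 CPM) and Lgals3bp (21.9 CPM), and wild-type library 3 for Irf9 (11.1 CPM).

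In the hippocampus, Irf1 was high in knockout library 1 (10.2 CPM) and Ifi27 in wild-type library 3 (16.8 CPM). Low single values there were Parp9 (3.40 CPM) and Samd9l (2.98 CPM) in wild-type library 2, Gbp7 (4.01 CPM) and Ifi44 (0.218 CPM) in knockout library 2, and Ifi35 (1.07 CPM) in knockout library 1.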

How the results depend on the processing

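Of the genes followed singly, as set out below, none past the threshold changed direction under the alternatives run, and neither did a count. Medians of the 39 genes near 0 did: that of the knockout effect in hippocampus (−0.10) was 0.03 without wild-type hippocampus 3, and that of cerebellum against cortex (−0.09) was 0.04 without wild-type cerebellum 1 and 0.03 without wild-type cortex 2. With wild-type libraries alone, the number of the 39 genes called was 4 between cerebellum and cortex, 0 between hippocampus and cortex, and 2 between cerebellum and hippocampus, whose median log2 fold change of the 39 was then −0.0846, against 0.20 (this fit has fewer samples). Leaving out 1 library at a time gave 9 to 15, 1 to 4 and 7 to 17 called genes in these 3 comparisons, 0 to 2 for the knockout effect in cortex, and 0 to 1 for its difference between hippocampus and cortex. The 2 in cortex and the 1 came without knockout cortex 1. The 17 between cerebellum and hippocampus came without wild-type cerebellum 2, where 12214 of all genes were called against 11676 in the main fit. Shares of all genes in the other leave-out fits are not given here, so these counts do not set the 39 apart from other genes. In cerebellum alone, the replicate block moved the count over all genes from 0 to 58 but called 0 of the 38 interferon-stimulated genes tested, with a median of 0.34. With the block fitted to all libraries, an alternative added after the data were seen, the count stayed at 0 and the median was 0.39. It changed no other call. Outside the fits that left out 1 library, single genes kept their side of the threshold in 153 of 163 combinations of gene and fit. Many of these genes were not past the threshold in the main fit and so had no call to lose. The cause of the 10 losses among the named genes was not tested. For the same named genes, leaving out 1 library left 284 combinations unchanged and lost 15 calls, and their gains were those without knockout cortex 1 given above. Calls lost or gained by the other genes show only in the ranges of called genes above. With 2 libraries per genotype in cortex and hippocampus, the spread there rests largely on the other groups. Oas1a, Zbp1 and Ifi44 have too few reads for small differences to be detectable. They were picked by level per length, and other genes of the 39 also rest on few reads. In the cerebellum, for example, Isg15 fell to 0.442 CPM and Psmb8 to 0.265 CPM in their lowest libraries.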
